A study of Mus musculus with 12 samples.

Results

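The 10 interleukin-1 (IL-1) family and inflammasome genes Il1a, Il1b, Il1rn, Il1r1, Il1r2, Il1rap, Il18, Nlrp3, Casp1 and Pycard were followed in sorted mouse microglia, chosen by gene symbol from 55401 genes counted. RNA sequencing had been done in 4 groups of 3 libraries: WT-Sham, WT-tFCI, miKO-Sham and miKO-tFCI. All mice were male, carried Hdac3 loxP/loxP and received tamoxifen on 5 consecutive days, begun when they were 6 to 8 weeks old. WT mice had no CreER, and miKO mice carried CX3CR1 CreER/wt, so that recombination of Hdac3, a histone deacetylase, was directed to cells expressing the fractalkine receptor and one Cx3cr1 allele was lost only in miKO. Surgery followed at least a month later and was either transient focal cerebral ischemia (tFCI), in which the middle cerebral artery was occluded for 60 min, or sham exposure of the arteries. CD11b+ CD45int cells were sorted on day 3. Each library pooled cells from 3 to 4 hemispheres.

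IL-1 alpha, from Il1a, and IL-1 beta, from Il1b, are cytokines that act on the same receptor, the product of Il1r1, which signals together with the accessory chain from Il1rap. Il1rn encodes the receptor antagonist, and Il1r2 encodes a decoy receptor that binds ligand without signalling. IL-1 beta and interleukin-18, from Il18, are made as precursors that are cut by caspase-1, from Casp1, after the sensor NLRP3 and the adaptor ASC, from Pycard, assemble an inflammasome. Microglia are a known source of both IL-1 cytokines after brain ischemia. Transcript levels were measured here, and neither cleavage nor secretion was.

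Several members lie close together in the genome (GRCm38 coordinates of GENCODE M21). Il1a (chr2:129299610-129309972, minus strand) and Il1b (chr2:129364570-129371139, minus strand) are neighbours on chromosome 2, and Il1rn lies on the same chromosome (chr2:24336853-24351494, plus strand). Il1r2 (chr1:40074079-40125231) and Il1r1 (chr1:40225080-40317257) share a stretch of chromosome 1, both on the plus strand. The promoters of 4 genes, picked after their values were seen, are shown so that their sequences can be read beside their levels, each as the 250 bases before a RefSeq start site on GRCm38.p6, 5′ to 3′ on the strand of the gene. Capitals mark a TATA box (TATAAA), an AP-1 site (TGANTCA) or a PU.1 core (GAGGAA) on either strand.
Il1a, chr2:129309973-129310222, minus strand: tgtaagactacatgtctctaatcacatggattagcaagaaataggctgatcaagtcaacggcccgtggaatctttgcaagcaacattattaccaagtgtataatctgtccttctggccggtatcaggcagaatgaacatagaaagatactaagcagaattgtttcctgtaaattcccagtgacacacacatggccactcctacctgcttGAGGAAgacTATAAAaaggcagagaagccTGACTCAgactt
Il1b, chr2:129371140-129371389, minus strand: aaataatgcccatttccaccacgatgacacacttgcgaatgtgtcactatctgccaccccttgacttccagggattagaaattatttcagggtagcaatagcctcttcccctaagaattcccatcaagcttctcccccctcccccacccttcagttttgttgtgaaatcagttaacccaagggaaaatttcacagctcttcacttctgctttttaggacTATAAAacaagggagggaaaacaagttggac
Il1rn, chr2:24336610-24336859, plus strand: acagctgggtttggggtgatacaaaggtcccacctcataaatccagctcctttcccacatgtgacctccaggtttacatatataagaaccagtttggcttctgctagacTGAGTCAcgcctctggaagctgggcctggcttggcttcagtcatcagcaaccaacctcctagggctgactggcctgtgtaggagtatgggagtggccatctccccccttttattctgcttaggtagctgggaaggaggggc
Nlrp3, chr11:59542436-59542685, plus strand: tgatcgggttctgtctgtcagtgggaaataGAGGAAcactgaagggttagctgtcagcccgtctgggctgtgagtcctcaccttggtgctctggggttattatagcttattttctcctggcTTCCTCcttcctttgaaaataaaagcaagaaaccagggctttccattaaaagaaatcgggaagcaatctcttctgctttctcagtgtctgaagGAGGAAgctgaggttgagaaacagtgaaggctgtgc
Counting back from position -1 at the base before the start, the TATA box lay at -32 to -27 in Il1a and at -31 to -26 in Il1b. Il1a also held an AP-1 site at -12 to -6, and the Il1rn window shown held one at -141 to -135. The Nlrp3 window shown held 3 PU.1 cores. The other Nlrp3 window, chr11:59541319-59541568, held none of them and had an NF-kB consensus at -186 to -177. Of 32851 promoter windows of this length in the mouse, 12.4% held a TATA box, 6.75% an AP-1 site and 23.3% a PU.1 core, on either strand and irrespective of position. Across the 14 windows of the 10 members these motifs occurred in 3, 2 and 4 windows, respectively, an NF-kB consensus (3.9% of all windows) in 2 and a C/EBP site (TTGCNNAA, 9.56% of all windows) in 2. These are matches of letters, and binding was not measured.

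Between 7697864 and 9452222 reads per library were counted on genes. Hdac3 was lower in both miKO groups, at 20.9 to 25.8 CPM (counts per 1000000 on TMM-scaled library sizes) in miKO-Sham against 35.0 to 46.4 in WT-Sham and at 27.1 to 36.0 in miKO-tFCI against 43.9 to 54.0 in WT-tFCI (log2 fold change -0.81 and -0.71, edgeR, adjusted p = 0.00281 and 0.0127). Cx3cr1, the gene that carries CreER, was also lower in miKO, by log2 fold changes of -1.68 and -1.84. All 10 microglia markers were detected in every group, with a summed level of 28350 to 34170 CPM in WT-Sham, 22190 to 27050 in miKO-Sham, 20770 to 21690 in WT-tFCI and 10350 to 17060 in miKO-tFCI. This sum includes Cx3cr1, of which miKO mice lack an allele by design, at means of 3862, 1196, 1527 and 438 CPM in the same order. Libraries came from 2 batches as labelled, and replicate 1 of each group was batch 1. Both tFCI libraries of batch 1 stood apart, with summed dendritic cell markers of 100.3 CPM in WT-tFCI and 322.9 in miKO-tFCI against 11.8 to 45.0 in the other tFCI libraries. By chi-square per degree of freedom, replicates 1 and 2 of miKO-Sham differed least of all replicate pairs. The value was 2.82 against 3.65 to 76.6 for the other pairs, above the value of sampling noise alone. By Pearson correlation of log2 CPM they were not the closest pair, at 0.976 against 0.981 for WT-Sham replicates 2 and 3. The labels put these miKO-Sham replicates 1 and 2 in different batches. They may be 1 library sequenced in 2 runs, in which case miKO-Sham has 2 independent libraries and not 3. WT-Sham replicate 1 held 272 CPM of the neutrophil gene S100a8, against 21.5 and 13.9 in the other WT-Sham libraries. Values with these libraries left out or combined are given where a call changes.

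tFCI raised 7 of these 10 genes in WT microglia. In miKO microglia 3 were called higher and 1 lower, near the shares over all genes. Neither Il1a nor Il1b was called higher there. A call required a Benjamini-Hochberg adjusted p under 0.05 in the edgeR quasi-likelihood test over 16451 genes and an absolute log2 fold change above 0.58, and all 10 members passed the filter on low counts. In WT-tFCI vs. WT-Sham, 7 members rose (Il1rn, Il1r2, Il1b, Il1r1, Il1a, Pycard and Nlrp3) and none fell (0 at an unadjusted p under 0.05 in edgeR and 0 in DESeq2), against 20.9% of all genes called higher and 11.7% called lower. In miKO-tFCI vs. miKO-Sham, 3 rose (Il1r2, Il1r1 and Il1rn) and 1 fell (Nlrp3), with 21.9% and 13.9% of all genes called in those directions. The median log2 fold change of the 10 members was 0.90 in WT and -0.04 in miKO, beside 0.02 and 0.03 over all genes tested. Without replicate 2 or without replicate 3 of WT-Sham the WT count was 5, as Nlrp3 and Pycard went below the fold threshold. The 3 genes that rose in miKO had 1 to 29 counts a library at Sham. With at least 10 counts required in every library, these 3 were left out. Of the 7 members then tested, 4 were called higher in WT and 0 in miKO.

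The genotype effect differed between Sham and tFCI for 3 of the 10 genes. In miKO-Sham vs. WT-Sham, 2 members rose (Il1b and Il1rn) and none fell (2 at an unadjusted p under 0.05 in edgeR, Casp1 and Il18, and 0 in DESeq2), where 8.58% of all genes were called higher and 6.8% lower. In miKO-tFCI vs. WT-tFCI, 1 rose (Il1r2) and 2 fell (Il1a and Nlrp3), where 4.08% of all genes were called higher and 4.71% lower. The interaction of genotype and surgery is the log2 fold change of miKO against WT under tFCI minus that under Sham, and was called at an adjusted p under 0.05 alone. It was called below 0 for 3 members (Il1b, Il1a and Nlrp3) and above 0 for none (0 at an unadjusted p under 0.05 in edgeR and 0 in DESeq2), with 2.57% of all genes called below and 1.25% above 0. The 2 tFCI comparisons share their tFCI and Sham libraries with the 2 genotype comparisons, so the counts are not independent. With replicates 1 and 2 of miKO-Sham taken as 1 library, the members called were 7 and 5 after tFCI in WT and miKO, 3 and 3 between genotypes at Sham and after tFCI, and 3 in the interaction.

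**Figure D1:**
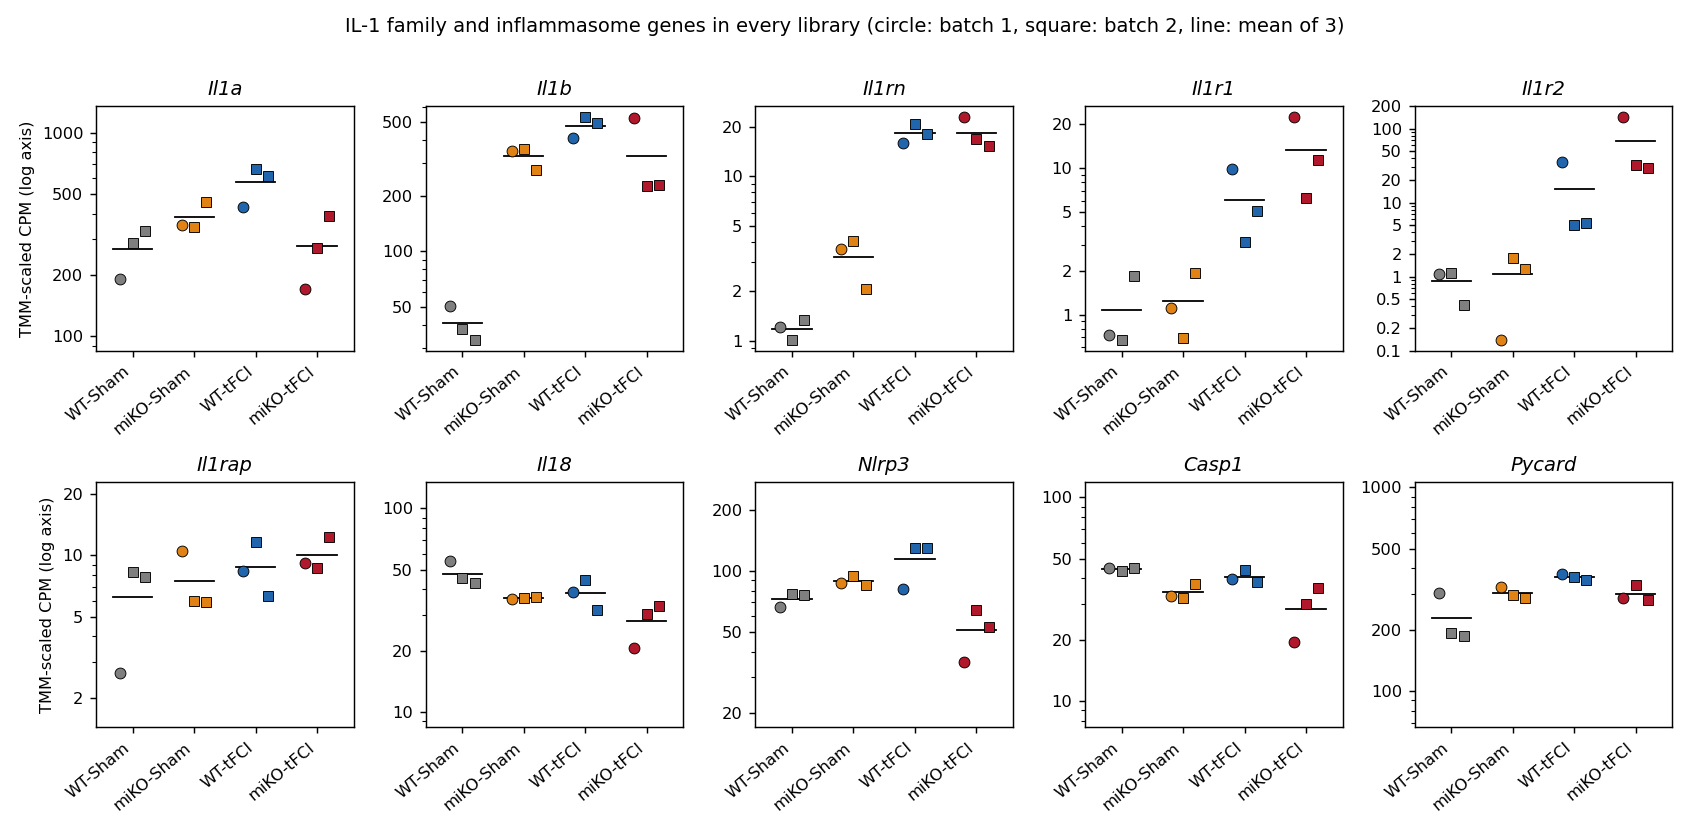
TMM-scaled CPM (log axis) of each member in the 12 libraries, by group, with circles for batch 1, squares for batch 2 and a line at the mean of 3 libraries. Il1b sat between 33.0 and 50.7 in WT-Sham and at 224 or more in every other library, and Nlrp3 in miKO-tFCI lay below every other library.

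Il1b showed the largest genotype difference of the members at Sham. Its level was 50.7, 38.1 and 33.0 CPM in the 3 WT-Sham libraries and 348, 358 and 274 CPM in the 3 miKO-Sham libraries. After tFCI it was 411, 532 and 491 CPM in WT and 525, 224 and 229 CPM in miKO. Both Sham groups were therefore fully separated, while the miKO-tFCI libraries overlapped those of miKO-Sham and, through replicate 1, those of WT-tFCI. Its log2 fold change was 3.03 ± 0.26 (SE, n = 3 per group) in miKO-Sham vs. WT-Sham (edgeR, adjusted p = 1.44e-06) and 3.61 ± 0.26 in WT-tFCI vs. WT-Sham (edgeR, adjusted p = 1.28e-07). In miKO-tFCI vs. miKO-Sham it was -0.08, with a 95% confidence interval from -0.58 to 0.43 (edgeR, adjusted p = 0.818). The interaction was -3.68 ± 0.35 (edgeR, adjusted p = 6.00e-05), and it remained called in each of 21 alternative settings. In miKO-tFCI vs. WT-tFCI the log2 fold change of -0.65 ± 0.24 was not called (edgeR, adjusted p = 0.0996). That difference was 0.35 in batch 1, with 1 library a group, and -1.17 in batch 2, and it was called without WT-tFCI replicate 1 (-1.003, edgeR, adjusted p = 0.0185), without miKO-tFCI replicate 1 (-1.07, edgeR, adjusted p = 0.00336) and without both (-1.22, edgeR, adjusted p = 0.000424), as well as with no filter on low counts (-0.68) and with only the 2 tFCI groups in the fit (-0.68). The antisense gene Il1bos shares 25 exon bases with Il1b and had 0.35% to 5.90% of its counts.

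Il1a rose after tFCI in WT and was lower in miKO-tFCI than in WT-tFCI. WT-Sham libraries held 191, 287 and 328 CPM, WT-tFCI libraries 434, 667 and 614, miKO-Sham libraries 352, 345 and 456 and miKO-tFCI libraries 172, 270.1 and 390. Every WT-tFCI library lay above every WT-Sham library and every miKO-tFCI library, and the miKO-tFCI libraries overlapped those of both Sham groups. Expressed as log2 fold change, the difference was 1.10 ± 0.18 in WT-tFCI vs. WT-Sham (edgeR, adjusted p = 0.000301) and -1.07 ± 0.18 in miKO-tFCI vs. WT-tFCI (edgeR, adjusted p = 0.00209), and the interaction was -1.63 ± 0.26 (edgeR, adjusted p = 0.00266). Without the batch term, the last pair of calls was lost, at adjusted p = 0.0572 and 0.0730. In miKO-tFCI vs. miKO-Sham the fold change of -0.53 ± 0.18 (edgeR, adjusted p = 0.0286) and in miKO-Sham vs. WT-Sham that of 0.56 ± 0.18 (edgeR, adjusted p = 0.0458) stayed under the fold threshold. With replicates 1 and 2 of miKO-Sham taken as 1 library, both were called, at -0.70 and 0.73, and likewise without miKO-Sham replicate 2, at -0.71 and 0.73. Without miKO-tFCI replicate 3 the first of them was called at -0.78 (edgeR, adjusted p = 0.00371). Il1a shares 222 exon bases with the antisense gene Gm14023, whose counts were 30.9% to 84.7% of those of Il1a, and the reads of such a pair cannot be told apart without strand.

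Il18, the third cytokine, was not called in any comparison. It ran at 42.8 to 54.9 CPM in WT-Sham, 35.7 to 36.9 in miKO-Sham, 31.7 to 44.3 in WT-tFCI and 20.6 to 33.1 in miKO-tFCI. The miKO-Sham libraries lay below all WT-Sham libraries, with a log2 fold change of -0.40 ± 0.18 (edgeR, adjusted p = 0.151). The miKO-tFCI libraries also lay below all miKO-Sham libraries (-0.38 ± 0.19, edgeR, adjusted p = 0.114). In miKO-tFCI vs. WT-tFCI the groups overlapped, at -0.46 ± 0.18 (edgeR, adjusted p = 0.131).

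**Figure D2:**
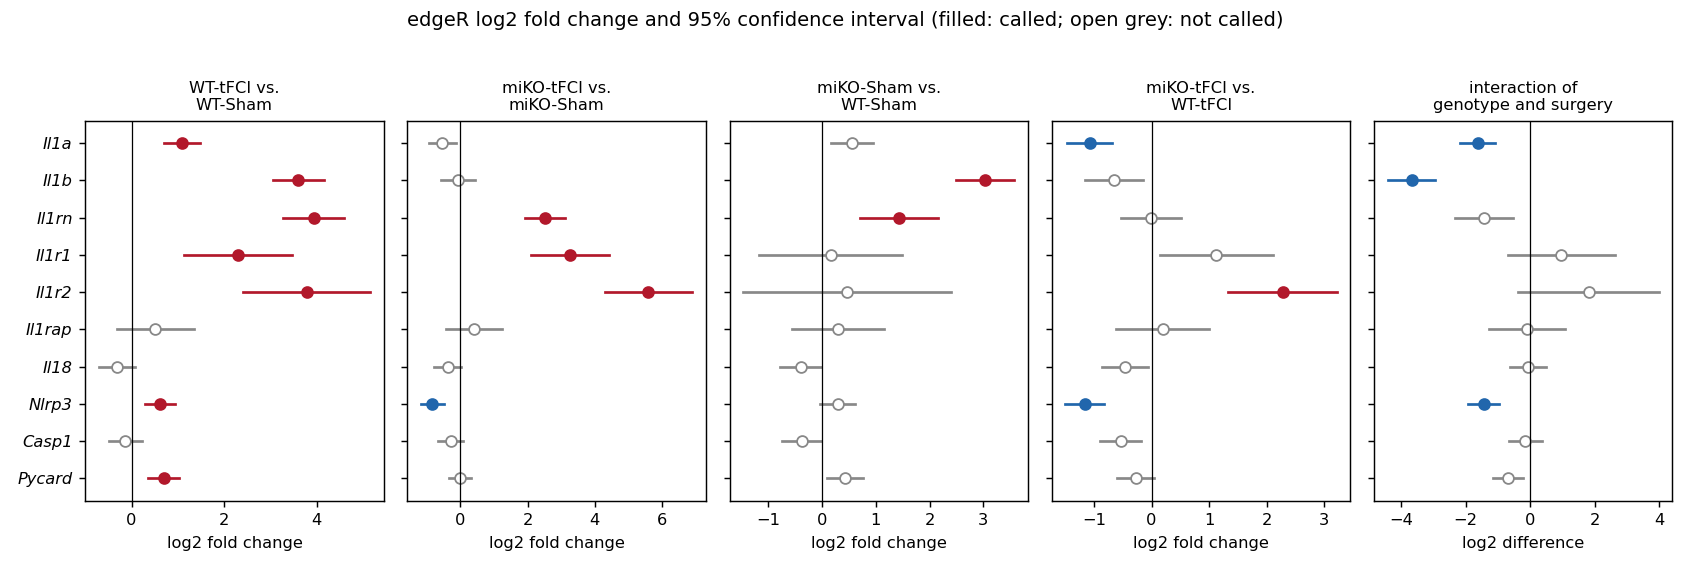
Fold changes of the 10 members (log2, horizontal axis) with 95% confidence intervals from the edgeR fit, 1 panel per comparison, filled where called and open grey where not. The intervals of Il1b, Il1a and Nlrp3 lie wholly below 0 in the interaction panel. So do those of Il1rn and Pycard, which were not called, while those of the receptors Il1r1, Il1r2 and Il1rap cross 0.

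The antagonist gene Il1rn was low at Sham and rose after tFCI in both genotypes. It was at 1.20, 1.01 and 1.33 CPM in WT-Sham (9 to 13 counts a library) and at 3.61, 4.02 and 2.05 CPM in miKO-Sham (16 to 29 counts). After tFCI it reached 15.9, 20.9 and 18.0 CPM in WT and 22.9, 17.0 and 15.3 CPM in miKO. The Sham groups did not overlap each other or either tFCI group, and the 2 tFCI groups overlapped. After tFCI its log2 fold change was 3.94 ± 0.31 in WT-tFCI vs. WT-Sham (edgeR, adjusted p = 2.7e-07), 2.51 ± 0.28 in miKO-tFCI vs. miKO-Sham (edgeR, adjusted p = 8.87e-06). At Sham it was 1.43 ± 0.34 in miKO over WT (edgeR, adjusted p = 0.00862). With the 2 Sham groups fitted alone this last difference had an adjusted p of 0.0503. In miKO-tFCI vs. WT-tFCI the difference in Il1rn had a 95% confidence interval from -0.52 to 0.51. The interaction of -1.43 ± 0.42 was not called (edgeR, adjusted p = 0.0786), although it was without miKO-Sham replicate 3, at -1.67, and with both tFCI libraries of batch 1 left out, at -1.72.

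Both IL-1 receptors rose after tFCI, the decoy receptor with the larger estimated fold of the 2 in each genotype. That gap was not tested within a genotype. The ratios of Il1r2 to Il1r1 within a library overlapped between Sham and tFCI in WT and did not in miKO. Il1r2 was at 1.08, 1.12 and 0.41 CPM in WT-Sham and at 0.14, 1.80 and 1.28 CPM in miKO-Sham, which was 1 to 13 counts a library. After tFCI it was at 35.3, 4.96 and 5.24 CPM in WT and at 143, 31.8 and 29.0 CPM in miKO. In both genotypes replicate 1 was several times higher than replicates 2 and 3, yet all tFCI libraries lay above all Sham libraries. The 2 tFCI groups overlapped through replicate 1 of WT. Relative to Sham, the log2 fold change was 3.78 ± 0.64 in WT-tFCI vs. WT-Sham (edgeR, adjusted p = 0.000353) and 5.59 ± 0.61 in miKO-tFCI vs. miKO-Sham (edgeR, adjusted p = 7.42e-06). Between the tFCI groups it was 2.28 ± 0.44, higher in miKO (edgeR, adjusted p = 0.00496), with 2.02 in batch 1 and 2.52 in batch 2. This call was lost without miKO-tFCI replicate 1 (1.92, adjusted p = 0.0730), without the batch term (adjusted p = 0.144) and in DESeq2 (adjusted p = 0.0720), whereas with both tFCI libraries of batch 1 left out it was kept. At Sham the genotypes overlapped, with a difference whose 95% confidence interval ran from -1.47 to 2.39, and without miKO-Sham replicate 1 it was called at 1.85. The interaction for Il1r2 was 1.81 ± 1.02 (edgeR, adjusted p = 0.394), and was called with no filter on low counts (adjusted p = 0.0135).

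The signalling receptor gene Il1r1 also rose after tFCI in both genotypes. Its level was 0.72, 0.67 and 1.85 CPM in WT-Sham and 1.11, 0.69 and 1.92 CPM in miKO-Sham. After tFCI it was 9.81, 3.12 and 5.12 CPM in WT and 22.2, 6.28 and 11.3 CPM in miKO, above all Sham libraries and again highest in replicate 1. The log2 fold change after tFCI was 2.30 ± 0.55 in WT (edgeR, adjusted p = 0.00410) and 3.27 ± 0.54 in miKO (edgeR, adjusted p = 0.000274). In miKO-tFCI vs. WT-tFCI the groups overlapped and the fold change of 1.12 ± 0.46 was not called (edgeR, adjusted p = 0.138), but it was with no filter on low counts (1.11) and with only the 2 tFCI groups in the fit (1.12). The accessory chain gene Il1rap was not called in any comparison, with 2.64 to 12.4 CPM over the 12 libraries and groups that overlapped throughout. It shares 552 exon bases with the antisense gene Gm20319, which had at most 4 counts a library.

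Markers of other cells moved with the receptor genes. The summed level of 5 dendritic cell markers ran from 6.16 to 11.1 CPM over the 6 Sham libraries, from 11.8 to 100.3 in WT-tFCI and from 43.0 to 322.9 in miKO-tFCI, and that of 5 astrocyte markers from 4.93 to 18.7, from 52.8 to 179.7 and from 155.5 to 479.5 CPM, in the same order. For 5 endothelial markers the levels summed to 9.61 to 22.8 CPM at Sham, 49.8 to 156.9 in WT-tFCI and 90.5 to 262 in miKO-tFCI. In each of these lists replicate 1 was the highest library of both tFCI groups, as it was for Il1r2 and Il1r1. The same held for the lists given next, except those of neutrophils and border-associated macrophages. Most of the dendritic cell sum was Ccr7 in miKO-tFCI (36.2 to 239 CPM) and in WT-tFCI replicate 1 (71.1 CPM). Flt3 and Cd209a were highest in the tFCI libraries of batch 1. Xcr1 was not higher in miKO-tFCI (mean 1.69 CPM) than in WT-tFCI (2.26 CPM). The 11 monocyte and macrophage markers summed to 47.5 to 216.5 CPM at Sham, 437.9 to 743 in WT-tFCI and 656.8 to 1175 in miKO-tFCI. Those of neutrophils, 11 genes, ran at 637 to 1361 CPM at Sham, 527 to 592 in WT-tFCI and 987 to 1293 in miKO-tFCI. Most of that sum in WT-Sham replicates 2 and 3 was Csf3r, which fell after tFCI, from a mean of 565 to 352 CPM in WT and from 764 to 261 CPM in miKO. Between the tFCI groups, 6 of the 10 neutrophil markers tested were called higher in miKO, among them S100a8 (298 against 61.0 CPM) and Cxcr2 (8.60 against 0.91 CPM). The median log2 fold change over this list was 2.27. Csf3r went the other way, at -0.43 (edgeR, adjusted p = 0.0379), under the fold threshold. The defining marker Ly6g stayed at or below 0.74 CPM. For comparison, the share of higher calls over the whole set of genes was 4.08%. Higher calls also came from 4 of 11 monocyte and macrophage markers and 3 of 5 astrocyte markers. They came from 1 of 7 markers of border-associated macrophages, 1 of 4 of dendritic cells and 1 of 4 of oligodendrocytes. None came from endothelial, neuron or T and NK cell markers, and 1 of 2 B cell markers was called lower. The 7 markers of border-associated macrophages ran from 542 to 695 CPM in WT-Sham, 1291 to 1624 in miKO-Sham, 639 to 955 in WT-tFCI and 844.5 to 1883 in miKO-tFCI. Stab1 made up most of this sum, at a mean of 511 CPM in WT-Sham and 1381 CPM in miKO-Sham. It was the 1 gene of the 7 called between the Sham groups, where 8.58% of all genes were called higher. T and NK cell markers (6 genes) stayed at or below 13.3 CPM, neuron markers (4 genes) at or below 15.5 CPM and B cell markers (4 genes) at or below 36.5 CPM, and those of oligodendrocytes (5 genes) ran from 76.2 to 172 CPM. The part of these cells in the levels of Il1b, Il1r1, Il1r2 and Il1rn was not tested, and in such bulk samples fewer cells of a type and less RNA per cell cannot be told apart.

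**Figure D3:**
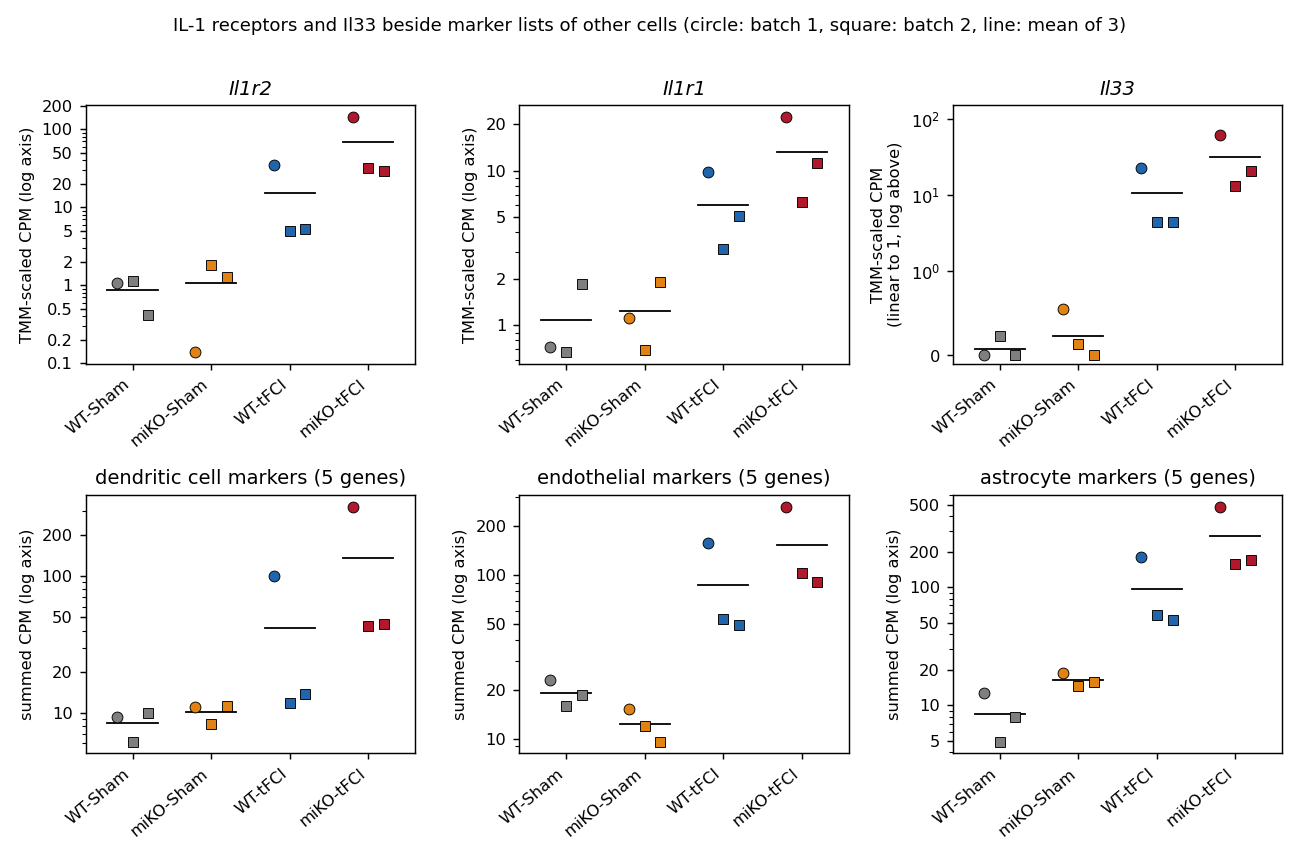
Il1r2, Il1r1 and Il33 (upper panels, TMM-scaled CPM) and summed markers of dendritic, endothelial and astrocyte lineages (lower panels, summed CPM) in the 12 libraries, by group, on log axes that for Il33 are linear up to 1, with a line at the mean. In both tFCI groups the batch 1 library (circle) is the highest in all 6 panels.

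Of the inflammasome genes, Nlrp3 moved in opposite directions after tFCI in the 2 genotypes. Its level was 66.4, 77.0 and 75.7 CPM in WT-Sham and 81.8, 129.8 and 129.8 CPM in WT-tFCI. In miKO it was 87.2, 94.2 and 84.8 CPM at Sham and 35.7, 64.4 and 53.1 CPM after tFCI. All WT-tFCI libraries lay above all WT-Sham libraries, and all miKO-tFCI libraries lay below every library of the other 3 groups. For Nlrp3 the log2 fold change was 0.62 ± 0.15 in WT-tFCI vs. WT-Sham (edgeR, adjusted p = 0.00590) and -0.83 ± 0.16 in miKO-tFCI vs. miKO-Sham (edgeR, adjusted p = 0.000712). It was -1.16 ± 0.16 in miKO-tFCI vs. WT-tFCI (edgeR, adjusted p = 0.000361), with -1.19 in batch 1 and -1.15 in batch 2, and the interaction was -1.45 ± 0.22 (edgeR, adjusted p = 0.00205). The last 3 of these 4 calls were made in all alternative settings tried, whereas the rise in WT went to between 0.52 and 0.55 and so below the fold threshold without WT-Sham replicate 2 or 3 or without WT-tFCI replicate 2 or 3. Microglia markers also fell to their lowest summed level in miKO-tFCI, as given above with Cx3cr1 in the sum, and their part in the Nlrp3 difference was not tested.

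With all libraries in the fit, Pycard was called for tFCI against Sham in WT alone, and Casp1 was called in none. Pycard stood at 303, 193 and 187 CPM in WT-Sham, 376, 364 and 351 in WT-tFCI, 323, 297 and 286 in miKO-Sham and 287, 331 and 279.6 in miKO-tFCI. Every WT-tFCI library lay above every library of the other groups, with a log2 fold change of 0.69 ± 0.15 over WT-Sham (edgeR, adjusted p = 0.00273), which went under the fold threshold without WT-Sham replicate 2 (0.57) or 3 (0.55). The difference between genotypes in this change missed the threshold (interaction -0.70 ± 0.22, edgeR, adjusted p = 0.0987). It passed in DESeq2 (-0.68, adjusted p = 0.0267), with no filter on low counts (-0.72, adjusted p = 0.0294), in batch 2 only (-0.88, adjusted p = 0.0286) and without WT-Sham replicate 1 (-0.94, adjusted p = 0.0131). The difference between the Sham groups was called in batch 2 only (0.61) and without WT-Sham replicate 1 (0.65). Its antisense neighbour Gm45205, with which it shares 485 exon bases, had 54.4% to 63.4% of its counts in every library, and without strand the reads of the shared bases cannot be told apart. Casp1 in WT was at 43.5 to 45.1 CPM at Sham and 38.4 to 43.7 CPM after tFCI. In miKO it was at 32.2 to 37.7 and 19.5 to 35.7 CPM, below the WT group of the same surgery in every library. The log2 fold changes of -0.38 ± 0.17 at Sham (edgeR, adjusted p = 0.137) and -0.54 ± 0.17 after tFCI (edgeR, adjusted p = 0.0588) were not called, the latter with the exception of the fit without miKO-tFCI replicate 3 (-0.71).

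Per kilobase of exon, the order of the members differed between groups. In WT-Sham, Il1a was highest at 136 ± 35.7 CPM per kb (SD, n = 3), followed by Pycard at 60.0 ± 17.2, Il18 at 46.4 ± 6.15, Casp1 at 29.8 ± 0.63 and Il1b at 21.3 ± 4.78. In miKO-Sham, Il1b at 171 ± 24.0 CPM per kb stood next to Il1a at 195 ± 31.5, a gap smaller than their spread. In WT-tFCI the same 2 genes led at 289 ± 61.9 and 250.5 ± 32.3 CPM per kb, and in miKO-tFCI they were at 140.5 ± 55.4 and 171 ± 90.2, again within their spread. Il1r2 went from the eighth place in WT-Sham (0.46 ± 0.21) to the fourth in miKO-tFCI (35.7 ± 34.2), where its SD was nearly as large as its mean. Il1rn, Il1r1 and Il1rap stayed at or below 3.33 CPM per kb in all groups.

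Ratios of paired members within a library do not depend on its total. The mean log2 ratio of Il1rn to Il1b was -5.02 ± 0.40 (SD, n = 3) in WT-Sham, -6.68 ± 0.30 in miKO-Sham, -4.70 ± 0.05 in WT-tFCI and -4.04 ± 0.42 in miKO-tFCI. The miKO-Sham libraries thus held the least antagonist transcript per Il1b transcript and the miKO-tFCI libraries the most, with no overlap between these 2 groups. The difference of tFCI minus Sham averaged over genotypes was 1.48 (exact permutation test within genotype, two-sided, p = 0.02, 0.0675 after Benjamini-Hochberg adjustment over 6 tests). The log2 ratio of Il1a to Il1b was 2.71 ± 0.72 in WT-Sham and near 0 in the other groups, at 0.23 ± 0.44 in miKO-Sham, 0.24 ± 0.14 in WT-tFCI and -0.19 ± 1.25 in miKO-tFCI. It differed by -1.45 between tFCI and Sham (exact permutation p = 0.045) and by -1.46 between miKO and WT (exact permutation p = 0.04), both 0.0675 after adjustment. The log2 ratio of Il1r2 to Il1r1 was -0.27 ± 1.54, -0.59 ± 1.90, 0.85 ± 0.92 and 2.13 ± 0.68 in the 2 Sham groups (WT, miKO) and the 2 tFCI groups (WT, miKO), and its difference of 1.91 between tFCI and Sham had an exact permutation p of 0.04 (0.0675 adjusted). None of the 6 ratio tests passed the adjusted threshold, and the other 2, of miKO minus WT, gave -0.50 for Il1rn to Il1b (exact permutation p = 0.22) and 0.48 for Il1r2 to Il1r1 (exact permutation p = 0.535). Each tested difference is a mean over the other factor. In these last 2, the miKO mean lay below the WT mean at Sham and above it after tFCI, so opposite differences were averaged. The surgery difference in Il1rn to Il1b was larger in miKO, and both differences in Il1a to Il1b rest mainly on WT-Sham.

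**Figure D4:**
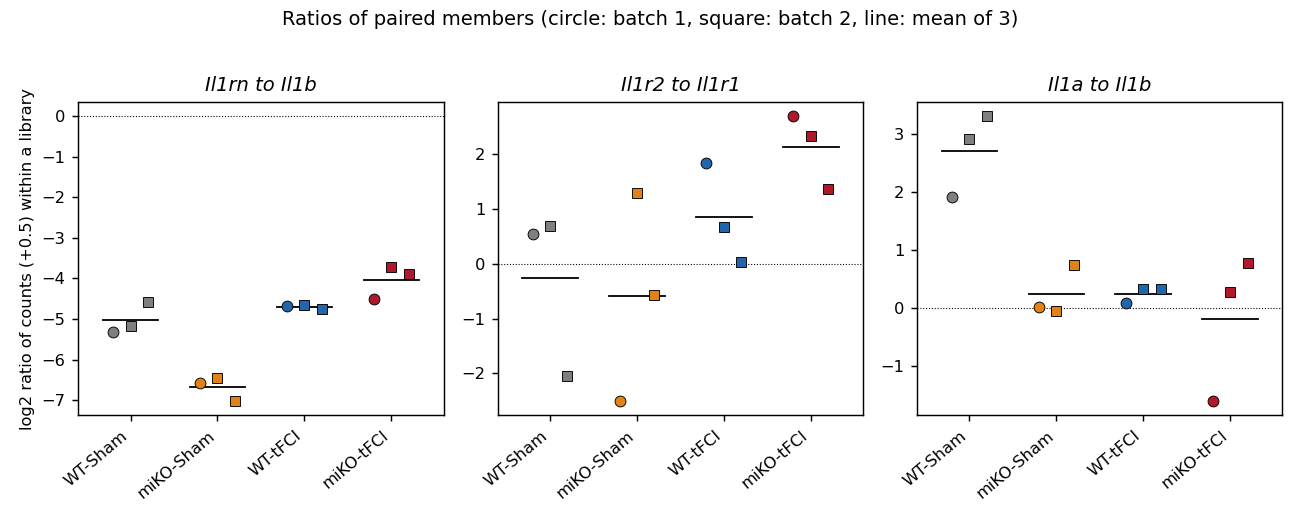
Log2 ratio of counts (+0.5) of 3 pairs of members within each of the 12 libraries, by group, with circles for batch 1, squares for batch 2 and a line at the mean. The Il1a to Il1b ratio lies between 1.91 and 3.31 in WT-Sham and at or below 0.77 in all other libraries.

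Other genes of the pathway were taken from lists of ligands, receptors, signalling proteins, inflammasome sensors and pore-forming proteins. Il33, an alarmin of the IL-1 family, was at 0 to 0.56 CPM in the 6 Sham libraries and rose after tFCI, to 22.9, 4.39 and 4.39 CPM in WT and to 61.1, 13.1 and 20.9 CPM in miKO, highest in the 2 libraries with the most astrocyte, endothelial and dendritic cell markers. It was called between the tFCI groups, at 1.74 ± 0.32 (edgeR, adjusted p = 0.00387). Il18bp, which encodes a soluble inhibitor of interleukin-18, was higher in miKO at both surgeries, by 1.48 ± 0.25 at Sham (edgeR, adjusted p = 0.000769) and 1.27 ± 0.25 after tFCI (edgeR, adjusted p = 0.00525). These were the 2 genes tested of 7 on that list, the IL-36 genes among those under the filter.

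Of 4 other receptor genes tested of 7, Sigirr, a negative regulator of IL-1 signalling, rose after tFCI by 3.38 ± 0.50 in WT (edgeR, adjusted p = 0.000105) and 3.16 ± 0.49 in miKO (edgeR, adjusted p = 0.00016), from under 1 CPM. Il18rap, a chain of the interleukin-18 receptor, also rose in both, by 2.69 ± 0.54 and 1.50 ± 0.51. Il1rl2, the receptor gene for IL-36, fell in both, by 0.94 and 0.71 on the log2 scale. Il1rl1, which encodes the receptor for interleukin-33, fell after tFCI in miKO, from 4.86, 5.83 and 12.9 CPM to 1.45, 1.63 and 1.61 CPM (log2 fold change -2.29 ± 0.38, edgeR, adjusted p = 0.00029). Its interaction was -2.13 ± 0.52 (edgeR, adjusted p = 0.0356), and it was lower in miKO-tFCI than in WT-tFCI (-1.30 ± 0.39, edgeR, adjusted p = 0.0476). In WT the log2 fold change after tFCI was -0.16 ± 0.36.

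Of the 12 genes of IL-1 receptor signalling tested, 2 rose and none fell in miKO-Sham vs. WT-Sham (1 lower at an unadjusted p under 0.05 in edgeR), close to the share over all genes, of which 8.58% were called higher and 6.8% lower. Those 2 were Irak2, a kinase of the receptor complex (268 ± 14.7 against 136 ± 18.6 CPM, SD, n = 3), and Irak3, a negative regulator (10.8 ± 1.27 against 5.59 ± 1.28 CPM). After tFCI, Irak2 fell by 1.16 on the log2 scale in miKO (edgeR, adjusted p = 0.000139), and the ubiquitin ligase gene Peli1 fell in both genotypes, by 0.77 and 0.72. None was called between the tFCI groups in edgeR, with 1 lower and 0 higher at an unadjusted p under 0.05. The median log2 fold change of the list stayed between -0.19 and 0.04 in the 5 comparisons, beside -0.02 to 0.04 over all genes.

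Among 13 inflammasome sensors and regulators tested of 17, 8 fell and 2 rose in miKO-tFCI vs. miKO-Sham, with a median log2 fold change of -0.72, where 13.9% of all genes were called lower and 21.9% higher. In WT-tFCI vs. WT-Sham 2 fell and none rose (2 higher at an unadjusted p under 0.05 in edgeR), with a median of -0.10, where 11.7% of all genes were called lower and 20.9% higher. Txnip, a thioredoxin inhibitor that can bind NLRP3, fell in both, by 1.76 in WT and 1.67 in miKO on the log2 scale. P2rx7, an ATP-gated channel, also fell in both, by 0.66 and 0.77. Those that fell in miKO and were not called in WT were the DNA sensor gene Aim2, the NAIP genes Naip2, Naip5 and Naip6, and the sensor genes Nlrp1a and Nlrp1b. For Naip5 and Nlrp1b the interaction was called (edgeR, adjusted p = 0.0207 and 0.0447), and for Aim2, Naip2, Naip6 and Nlrp1a it was not. Naip5 stood at 85.1, 77.3 and 68.7 CPM in WT-Sham, 118, 119 and 112 in miKO-Sham, 67.7, 75.5 and 82.6 in WT-tFCI and 43.7, 70.6 and 54.1 in miKO-tFCI, so that it was highest at Sham in miKO (0.59 ± 0.16 over WT, edgeR, adjusted p = 0.0177). Nlrp1b was lower in miKO-tFCI than in WT-tFCI (-0.81 ± 0.19, edgeR, adjusted p = 0.0162). The 2 that rose were Mefv, which encodes pyrin, and Brcc3, which encodes a deubiquitinase of NLRP3, with Mefv at 12.0, 1.63 and 1.48 CPM in miKO-tFCI against 0.26 to 0.83 in miKO-Sham. The NAIP genes are related copies, so the split of reads among them is uncertain, as it is between Nlrp1a and Nlrp1b.

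Of 6 caspase and pore-forming genes tested of 7, Ninj1, which encodes a protein that ruptures the plasma membrane late in lytic death, was higher in miKO at both surgeries. It was at 632, 632 and 468 CPM in miKO-Sham against 160.3, 118 and 113 in WT-Sham, and at 377, 445 and 407 CPM in miKO-tFCI against 164, 172 and 157 in WT-tFCI, with no overlap between genotypes. The log2 fold change was 2.15 ± 0.16 at Sham (edgeR, adjusted p = 6.21e-07) and 1.32 ± 0.16 after tFCI (edgeR, adjusted p = 0.000147). Casp4, which encodes the sensor of cytosolic lipopolysaccharide in mice (caspase-11), was lower in miKO at Sham (log2 fold change -0.63 ± 0.15, edgeR, adjusted p = 0.00916) and after tFCI (-0.98 ± 0.15, edgeR, adjusted p = 0.00106). Casp12, another inflammatory caspase gene, was low throughout, at 1.68 to 2.40 CPM in WT-Sham, 0.14 to 0.42 in miKO-Sham, 1.83 to 5.03 in WT-tFCI and 2.77 to 11.5 in miKO-tFCI, and its interaction was 3.68 ± 0.78 (edgeR, adjusted p = 0.0155). Gsdmd, the pore-forming substrate of caspase-1, stayed under the fold threshold in all comparisons, at -0.52 and -0.56 after tFCI in WT and miKO.

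**Figure D5:**
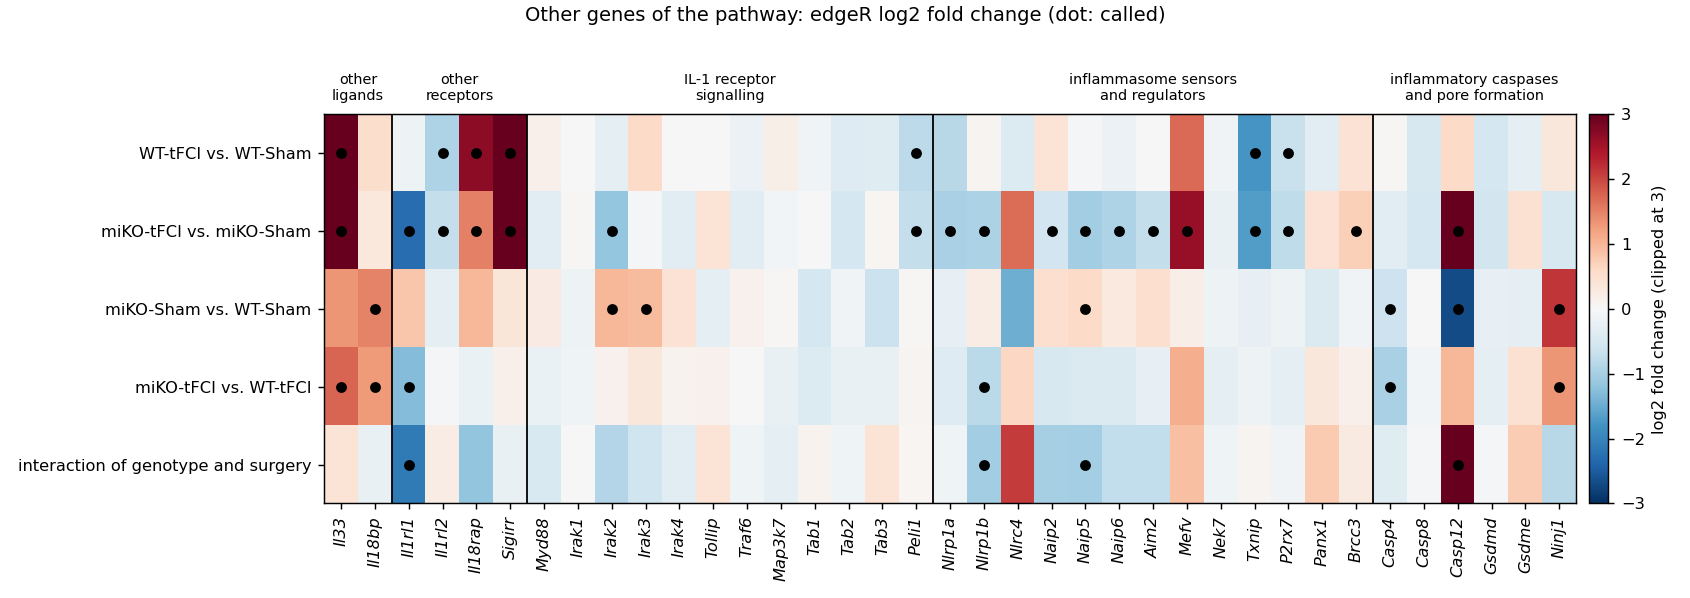
Fold changes (log2, colour, clipped at 3) of the tested genes of 5 pathway lists (columns) in the 5 comparisons (rows), with a dot where called. Dots in the column block of inflammasome sensors are densest in the row miKO-tFCI vs. miKO-Sham, with 10 of 13 genes called.

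Across the 12 libraries, the 3 genes with the profile most like that of each member were found by Pearson correlation of log2 CPM, given as a description since the libraries share batch and group. Il1a and Nlrp3 were both most like Cd83, a gene of activated microglia and dendritic cells (r = 0.917 and 0.946), and were each other's nearest member (r = 0.817). Next for Il1a came Gpr84 (r = 0.894) and Slc38a10 (r = 0.891), and for Nlrp3 Dennd4a (r = 0.939) and Gm46224 (r = 0.899). Il1b was most like Cox6a2 (r = 0.964), Noc4l and Apip, and among the members it was nearest to Pycard (r = 0.806). Il1rn was most like Cfl1 (r = 0.991), Snx32 and Gm7336. Il1r1 was most like Metrnl (r = 0.979), Efemp1 and Def8, and Il1r2 most like Nxpe4 (r = 0.987), Ttc39c and Fads2, while the 2 receptor genes correlated with each other at r = 0.908. Il18 was most like Gpr82 (r = 0.952), Hist2h4 and Tbc1d31, and Casp1 most like Liph (r = 0.979), Lrrcc1 and Pde3b, with r = 0.917 between Il18 and Casp1. Pycard was most like Gm45205 (r = 0.984), the gene with which it shares exon bases, and next most like Arl5c and Rpsa-ps10. Il1rap was most like Fancb (r = 0.89) and Gemin6 (r = 0.89), followed by Gm8116 (r = 0.84), and its highest correlation with a member was 0.528, with Il1rn.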

How the data were processed

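RNA from CD11b+ CD45int cells was amplified with the SMART-Seq v4 Ultra Low Input kit and sequenced as paired ends of 150 bases. The deposited values are raw read counts per gene, which the authors made from the reads; per the submitters' processing notes the tools included FastQC 0.11.9, Trim Galore, HISAT2 2.2.1, SAMtools and HTSeq 1.99.2, with mm10 (GRCm38.p6). Whether counting used strand is not given in the sources used here. Of all reads tallied, those not aligned included, 30.7% to 38.5% fell on genes and 45.3% to 52.5% on no feature. Rows without a gene (no feature, ambiguous and the like) were left out.

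Gene IDs were matched to GENCODE M21, 54349 with the version and 792 by the stable part only. Counts were fitted in edgeR 4.0.16 (R 4.3.3) with a quasi-likelihood model of 4 groups plus batch, TMM scaling and the default filter, leaving 16451 genes, with Benjamini-Hochberg adjustment over these. The study's methods name DESeq2, and edgeR was used here with DESeq2 1.42.0 as an alternative. CPM are counts per 1000000 on TMM-scaled library sizes. The fit was tested on simulated data. Each replicate was a pool of mice, so p-values measure the spread between such pools. Replicate numbers were not treated as pairs, since correlations of deviations between same-numbered libraries ran from -0.06 to 0.67. The members and the pathway and marker lists were chosen with earlier results of these data known. All 10 members, and the genes of the pathway lists with the largest called changes, are named. Ratios within a library used counts + 0.5 and 400 relabelings in Python 3.11.15, for which the smallest p is 0.005. Promoters are from RefSeq, and all 10 members matched. Alternatives were other size factors, filters, tools, batch terms, batch 2 alone and each library left out.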

Additional observations from a re-analysis of the deposited data

Results flagged for a closer look

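For 3 members the genotype effect differed between Sham and tFCI by the edgeR interaction test over all genes. For Il1b the interaction was -3.683 on the log2 scale, the genotype difference being 3.03 at Sham and -0.65 after tFCI. For Il1a it was -1.631, with genotype differences of 0.56 and -1.07, and for Nlrp3 it was -1.449, with 0.29 and -1.16. In batches 1 and 2 taken separately the same difference was -2.42 and -4.31 for Il1b, -2.22 and -1.35 for Il1a and -1.58 and -1.37 for Nlrp3. Batch 1 held 1 library a group, so its values have no measure of spread. If replicates 1 and 2 of miKO-Sham are 1 library, the 2 batches are not separate. Groups of 3 libraries are too small to test a single library against the rest. The loss of one Cx3cr1 allele and the loss of Hdac3 cannot be told apart in this design.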

How the results depend on the processing

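With at least 10 counts required in every library, 7 members remained testable, Il1rn, Il1r1 and Il1r2 being removed, and the members called were 4 after tFCI in WT, 1 after tFCI in miKO and 1 between the Sham groups. With only the groups compared in the fit, 1 of 9 tested was called between the Sham groups and 5 in miKO-tFCI vs. WT-tFCI. With no filter on low counts, 5 were called in miKO-tFCI vs. WT-tFCI and 5 in the interaction, and with no batch term 1 was called in miKO-tFCI vs. WT-tFCI. The cause of these changes was not tested. With each library left out in turn, the members called ran from 5 to 7, 4 to 5, 2 to 3, 3 to 4 and 3 to 4 in the comparisons in the order used above. With both tFCI libraries of batch 1 left out, an alternative chosen after seeing the data, they were 7, 4, 2, 4 and 4. With a replicate block the counts were 7, 4, 2, 3 and 3, the same as without it, and it changed no other call. The ratio of Il1rn to Il1b between tFCI and Sham ran from 1.392 to 1.596 with each library left out, and passed the adjusted threshold without WT-Sham replicate 3 (1.59) and without miKO-tFCI replicate 3 (1.44). The ratio of Il1a to Il1b ran from -1.69 to -1.09 for surgery and from -1.70 to -1.10 for genotype, and passed without miKO-tFCI replicate 3.

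Reversals of sign occurred only in comparisons in which the member was not called. In miKO-tFCI vs. miKO-Sham, Il1b was at 0.00286 with 10 counts required and at 0.0611 with miKO-Sham 1 and 2 as 1 library, and ran from -0.53 to 0.0875 with each library left out. There Pycard was at 0.0137 with RLE size factors, 0.0162 in DESeq2, 0.0575 with 10 counts required, 0.0381 in batch 2 only, 0.0387 with miKO-Sham 1 and 2 as 1 library and 0.13 without the tFCI libraries of batch 1, and ran from -0.13 to 0.0731. Between the Sham groups, Il1rap was at -0.45 in batch 2 only, and with each library left out Il1rap ran from -0.19 to 0.52, Il1r1 from -0.53 to 1.00 and Il1r2 from -0.48 to 1.85. In miKO-tFCI vs. WT-tFCI, Il1rn was at 0.0145 with RLE size factors, 0.0138 in DESeq2 and 0.0109 without the batch term, and ran from -0.25 to 0.13, while Il1rap ran from -0.025 to 0.44. In the interaction, Il1rap was at 0.63 in batch 2 only and ran from -0.33 to 0.38, and without the tFCI libraries of batch 1 Casp1 was at 0.0203 and Il18 at 0.10, with ranges of -0.32 to 0.0448 and -0.26 to 0.14. Among the values of single members under alternatives, 996 kept their sign and side of the threshold, 42 changed sign, 24 became called and 12 lost a call. Il1r1, Il1r2 and Il1rn rest on 1 to 29 counts a library at Sham, which limits the precision of their folds.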
